A study of Arabidopsis thaliana with 48 samples.

Results

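The nonpolysome fraction of hot3-2 seedlings was compared with the same fraction of WT seedlings, as 4 hot3-2 libraries against 4 WT libraries out of 48 libraries in the series. The assay was 18S-ENDseq, in which RNA is circularized so that the 5′ and 3′ ends of 18S rRNA meet, and the junction is amplified and sequenced. Each library holds 330 counts, 1 for each pair of 30 positions of the 3′ end and 11 tail classes (no tail, or a non-templated tail of 1 to 10 nt), and all of them were used. The series spans 4 genotypes and 3 fractions.

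hot3-2 is a T-DNA insertion allele of HOT3, and WT is Col-0, the ecotype in which the mutant was made. All plants were 18-day-old seedlings. The nonpolysome fraction is the pooled upper part of a sucrose gradient, lighter than the 80S monosome, and therefore holds free small subunits and their precursors along with other light particles. The files count only 18S 3′ ends, so the loss of HOT3 transcript could not be checked in them, and only 1 allele is represented. Nothing was measured per cell or per ribosome: every level below is relative to mature 18S rRNA of the same library, and more precursor cannot be told apart from less mature 18S.

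HOT3 encodes eIF5B1, a GTPase that joins the ribosomal subunits at the start of translation and whose yeast relative acts in a test-like joining of subunits during the last steps of small-subunit maturation. In that maturation the internal transcribed spacer ITS1, which follows 18S rRNA in the primary transcript, is cut back stepwise, with A2 and A1 marking intermediate ends and D the mature end made by the endonuclease NOB1. Non-templated tails are added to rRNA precursors by terminal nucleotidyltransferases and are known as marks for trimming or decay by the nuclear exosome.

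The end of 18S rRNA and the start of ITS1 are printed because the positions of all ends are read along them. The sequence was read from the TAIR10.1 genome, where it is the same at both annotated 18S genes, AT2G01010 (chr2:3706-5513, plus strand, 1808 bp) and AT3G41768 (chr3:14197677-14199484, plus strand, 1808 bp). The printed 30 bases are chr2:5508-5537 and chr3:14199479-14199508. The first 6 bases are the last of the mature 18S exon and the rest are ITS1, with A1 (chr2:5521-5526) and then A2 (chr2:5534-5535) in capitals.
18S end and ITS1: tcattgtcgatacCTGTCCaaaacagAAcg
Positions are counted from D, so that an end at +1 carries 1 ITS1 base, A1 ends lie at +8 to +13, A2 ends at +21 to +22, and an end at -1 lacks the last base of mature 18S.

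The libraries held 2138644 to 3847555 counted reads in hot3-2 and 1938991 to 3427512 in WT. Untailed reads at D made up 71.0% to 79.9% of them in hot3-2 and 90.3% to 91.7% in WT. Levels are given as percent of that untailed D count. Counting 3 reads in a library corresponds to between 9.54e-05% and 1.98e-04% of untailed D, which is the limit a count of 0 allows. PCR reads carry no molecular identifiers, so this limit covers counting error only. By log2 distance between libraries, replicates 1 and 3 were most alike and replicates 2 and 4 were most alike in both genotypes. The share of A2 reads with a tail split otherwise, with replicates 3 and 4 above 1 and 2. It was 63.6%, 53.2%, 74.6% and 71.9% in hot3-2 replicates 1 to 4, and 37.4%, 34.7%, 52.6% and 51.9% in WT. The p-values measure the spread among these 4 libraries a group, stated by the study to be biological replicates.

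Most kinds of end other than untailed D were more abundant in hot3-2 nonpolysomes, and none was called less abundant. Over +1 to +24, all ends together were at 21.9%, 16.9%, 27.1% and 22.5% of untailed D in hot3-2, against 3.05%, 2.13%, 3.39% and 2.39% in WT, an 8.07-fold difference without overlap (exact two-sided permutation p = 0.029, the smallest 4 against 4 libraries allow). This and the other permutation tests treat the libraries as unpaired. Paired by replicate number, the smallest p would be 0.125 and none could pass. Untailed ends accounted for 13.3% ± 1.6 in hot3-2 and 2.23% ± 0.40 in WT, and tailed ends for 8.82% ± 2.69 in hot3-2 and 0.506% ± 0.201 in WT. Of the 329 classes other than untailed D, 252 passed the minimum of 10 reads in at least 4 of the 8 libraries, and 226 of these were higher in hot3-2 (89.7% of the classes tested) and 0 lower, by edgeR's quasi-likelihood test with Benjamini-Hochberg adjustment at 0.05. At an unadjusted p under 0.05 there were 227, and DESeq2 with the same D counts as size factors called 225 higher and 0 lower. The median log2 fold change was 3.79 over all 252 classes, 2.68 over the 29 untailed classes and 3.92 over the 223 tailed classes. Libraries of the 2 groups did not overlap in 224 classes (88.9%). Of the 252 classes, 122 had fewer than 10 reads in at least 1 WT library, and 118 of these were called, so that many calls rest on classes that passed through their hot3-2 counts. Among the 130 classes with 10 or more reads in every WT library, 108 were higher (83.1%).

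The direction depended on how library size was set. With all counted reads, most of which are untailed D reads, 220 classes were higher and 3 lower. Scaling by TMM, which takes most classes as unchanged, moved the median log2 fold change by -3.55 and gave 64 classes higher and 75 lower in hot3-2. DESeq2's own size factors moved it by -3.59 and gave 60 higher and 76 lower. Under these scalings a fold change is relative to the typical class, and all changes below are relative to untailed D unless said otherwise.

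**Figure D1:**
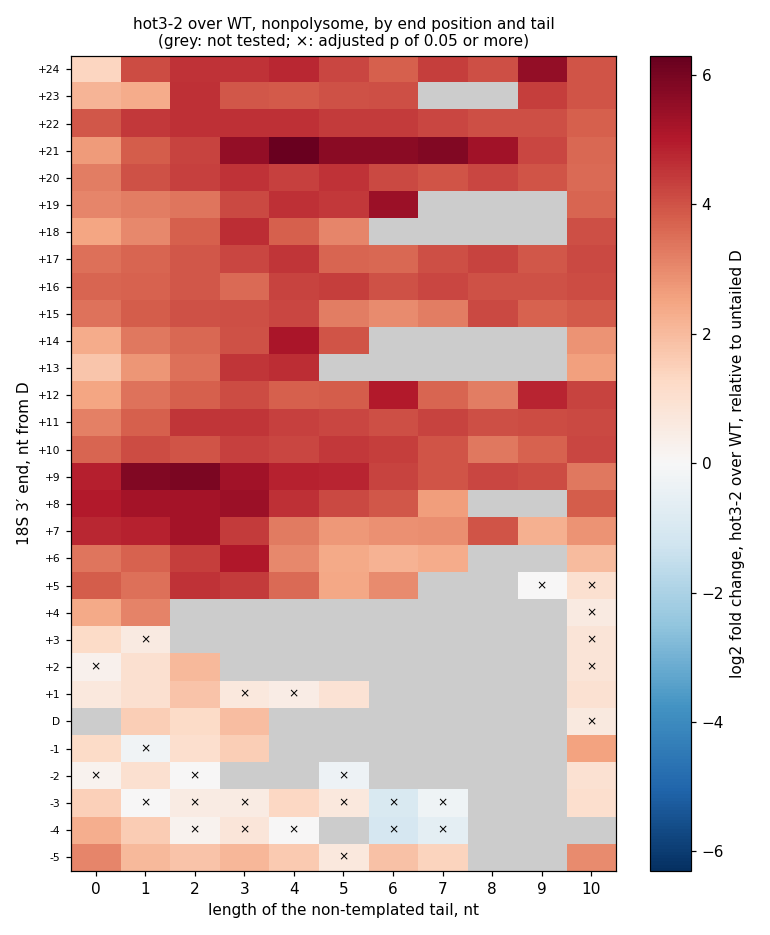
log2 fold change of hot3-2 over WT for each end position (rows, nt from D) and tail length (columns, nt) in the nonpolysome fraction, relative to untailed D. Red is higher in hot3-2, grey classes were not tested and a cross marks the 26 classes that were not called; these lie at +5 and below.

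Among the classes of at least 0.01% of untailed D, the largest changes lay in the D-proximal part of A1 and just before it, with short tails or none. The 10 classes of at least that level with the largest fold changes whose libraries did not overlap ended at +7, +8 or +9 and carried 0 to 4 tail nt. Below that level lay the largest log2 fold change of all 252 classes tested, 6.23, for an A2 class with a 4 nt tail. That A2 class had fewer than 10 reads in at least 1 WT library. Ends at +9 with a tail of 2 nt were at 0.0726%, 0.0511%, 0.0845% and 0.0599% of untailed D in hot3-2 replicates 1 to 4, against 0.00108%, 0.00115%, 0.00131% and 0.000791% in WT. Every hot3-2 library lay far above every WT library, and the log2 fold change was 5.95 (SE 0.34, edgeR adjusted p = 1.1e-08). Ends at +9 with 1 nt averaged 0.106% ± 0.016 in hot3-2 and 0.00187% ± 0.00032 in WT (SD, n = 4 each), a log2 fold change of 5.82. At +8, untailed ends reached 1.29%, 1.11%, 1.38% and 1.23% in hot3-2, against 0.0414%, 0.0367%, 0.0424% and 0.0385% in WT. Those libraries hardly varied within a genotype, and the log2 fold change was 4.98 (SE 0.22, edgeR adjusted p = 2.7e-09). The remaining 7 classes were untailed +9, +9 with 3 or 4 nt, +8 with 1, 2 or 3 nt, and +7 with 2 nt, with log2 fold changes of 4.86 to 5.39. The highest of these 7, +8 with 3 nt, had fewer than 10 reads in at least 1 WT library and passed the read minimum through its hot3-2 counts.

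**Figure D2:**
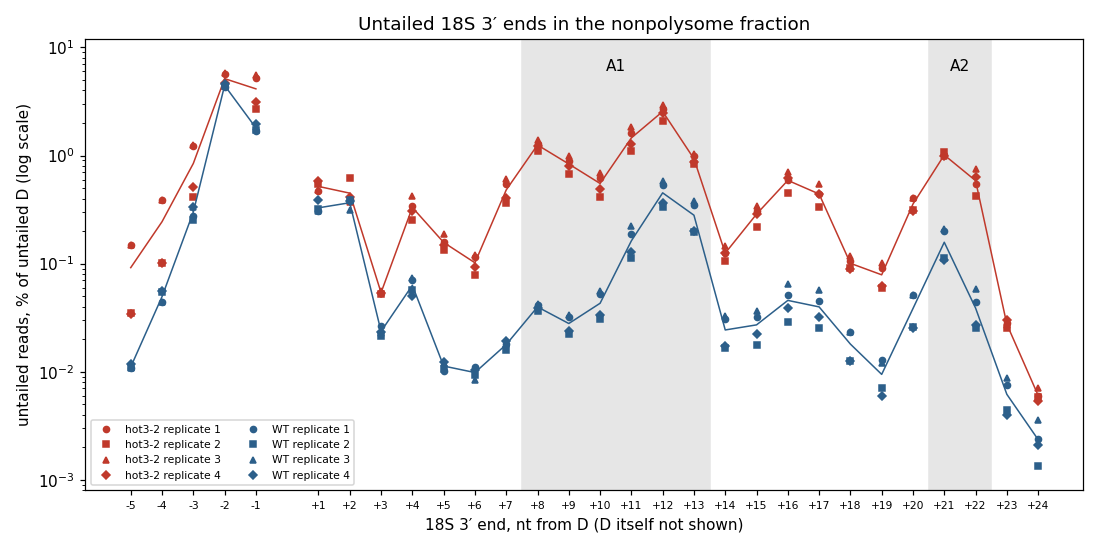
Untailed reads at each 3′ end position as percent of untailed D (log scale) in the 4 hot3-2 and 4 WT nonpolysome libraries, with lines through the group means and A1 and A2 shaded. The profiles lie closest at -2, +1 and +2 and are farthest apart from +7 to +9, where hot3-2 means are 26.9 to 31.5 times the WT means.

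Untailed ends shorter than mature 18S rose at 4 of 5 positions, by amounts that varied with position and between libraries. Untailed ends at -1, which lack 1 base of 18S, were at 5.21%, 2.70%, 5.52% and 3.12% of untailed D in hot3-2, against 1.70%, 1.71%, 1.83% and 1.97% in WT (log2 fold change 1.20, SE 0.24, edgeR adjusted p = 0.00030). At -5 they were at 0.148%, 0.0351%, 0.150% and 0.0345% in hot3-2, against 0.0108%, 0.0109%, 0.0107% and 0.0117% in WT (log2 fold change 3.05, SE 0.50, adjusted p = 5.1e-05). All hot3-2 libraries exceeded all WT libraries at both positions, and hot3-2 replicates 1 and 3 stood well above hot3-2 replicates 2 and 4. Untailed ends at -2, the most frequent end other than D in both genotypes, averaged 5.14% ± 0.71 in hot3-2 and 4.45% ± 0.14 in WT, and their libraries overlapped (log2 fold change 0.21, adjusted p = 0.23). Summed over -5 to -1, untailed ends were at 10.5% ± 2.8 in hot3-2 and 6.61% ± 0.30 in WT (exact permutation p = 0.029, and 0.031 after adjustment over 15 region tests). With all counted reads as denominator the log2 ratio of this sum was 0.38 and the test no longer passed.

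Reads assigned a shortened end with a tail that brings them to the length of mature 18S form 5 classes. The bases of these tails were not available, and whether they were added after shortening was not tested. These 5 classes were singled out after their values were seen, so that their count of calls is a description. edgeR called 0 of them at an adjusted or unadjusted p of 0.05, where 89.7% of all classes tested and 15 of the 30 tailed classes from -5 to -1 were called. Ends at -1 with 1 tail nt were at 0.265%, 0.326%, 0.227% and 0.253% in hot3-2, against 0.313%, 0.330%, 0.285% and 0.312% in WT, with overlapping libraries. Ends at -2 with 2 tail nt averaged 0.154% ± 0.038 in hot3-2 and 0.151% ± 0.032 in WT. The other 3 classes (-3 with 3 nt, -4 with 4 nt and -5 with 5 nt) had log2 fold changes of 0.53, 0.02 and 0.65. The standard errors were 0.21 to 0.41 over the 5 classes, and a missed threshold does not show that these levels were equal.

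Tailed ends from -5 to -1 summed to 0.574% ± 0.035 in hot3-2 and 0.570% ± 0.038 in WT (exact permutation p = 0.80), the 1 region of 15 that did not pass. Of its 50 classes 30 were tested and 15 were higher, against 89.7% of all classes tested. The lowest fold changes of all classes were also found here, at -4 and -3 with 6 nt (log2 -1.04 and -0.94, edgeR adjusted p = 0.091 and 0.070), 2 classes named after their values were seen. For -4 with 6 nt the WT libraries themselves ranged between 0.00181% and 0.0112%, wider than the hot3-2 range of 0.00218% to 0.00460%.

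At D and in the first ITS1 bases, the product of NOB1 cleavage and ends a base or so beyond it, differences were smaller than in the regions from +3 on. Tailed ends at +1 to +2 were at 0.0288% ± 0.0012 in hot3-2 and 0.0142% ± 0.0043 in WT, a log2 ratio of 1.02 without overlap. Tailed reads at D were at 0.0687%, 0.0646%, 0.0757% and 0.0767% in hot3-2, against 0.0353%, 0.0193%, 0.0440% and 0.0266% in WT, a log2 ratio of 1.19 without overlap. Untailed ends at +1 averaged 0.518% ± 0.054 in hot3-2 and 0.328% ± 0.039 in WT (log2 fold change 0.66, edgeR adjusted p = 0.0074). This call was lost with all counted reads as library size, where the log2 fold change was 0.39. Untailed ends at +2 averaged 0.449% ± 0.112 in hot3-2 and 0.366% ± 0.036 in WT and overlapped (adjusted p = 0.23).

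From +3 to +7, between D and A1, the increase grew with distance from D, apart from a lower value at +6 than at +5. The hot3-2 mean over the WT mean was 2.28 at +3, 5.25 at +4, 13.9 at +5, 10.4 at +6 and 26.9 at +7. Untailed ends at +7 were at 0.549%, 0.364%, 0.602% and 0.408% in hot3-2, against 0.0179%, 0.0160%, 0.0182% and 0.0193% in WT. The hot3-2 mean was 0.480% at +7 and 0.102% at +6, and the WT mean 0.0178% at +7 and 0.00982% at +6, so the rise at +7 was present in WT but smaller. Of the 50 tailed classes of this stretch 30 were tested and 25 were higher, a share no larger than the 89.7% of all classes tested, and 13 of the 30 had 10 or more reads in every WT library.

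Within A1 the increase ran down along the 6 positions. The ratio of hot3-2 to WT means was 31.5 at +8, 29.9 at +9, 12.8 at +10, 8.96 at +11, 5.65 at +12 and 3.33 at +13. The most frequent A1 end was +12 in both genotypes, with 2.69%, 2.11%, 2.93% and 2.48% in hot3-2, against 0.531%, 0.334%, 0.579% and 0.362% in WT. Groups did not overlap there, and WT replicates 1 and 3 stood above WT replicates 2 and 4. Tailed A1 ends rose more than untailed ones. They were at 3.02%, 2.28%, 3.57% and 2.95% in hot3-2, against 0.199%, 0.122%, 0.231% and 0.134% in WT (log2 ratio 4.11, exact permutation p = 0.029, adjusted p = 0.031), and the log2 ratio of untailed A1 ends was 2.91. Of the 60 tailed A1 classes 53 were tested and called higher, against 89.7% of all classes tested, but only 25 of the 53 had 10 or more reads in every WT library.

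Ends between A1 and A2 rose both with and without tails. Untailed ends from +14 to +20 summed to 1.98% ± 0.32 in hot3-2 and 0.203% ± 0.069 in WT (log2 ratio 3.29). Tailed ends of the same stretch summed to 2.05% ± 0.62 in hot3-2 and 0.127% ± 0.049 in WT (log2 ratio 4.00). The untailed ratio was lowest at +14, at 5.14, and highest at +16, at 12.9. At +17, 74.3% to 79.2% of the reads of a hot3-2 library and 68.1% to 71.5% of a WT library carried a tail.

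At A2 the 2 positions differed. Untailed ends at +21 were at 1.01%, 1.07%, 0.985% and 0.980% in hot3-2, against 0.202%, 0.113%, 0.208% and 0.107% in WT, a ratio of means of 6.41. At +22 untailed ends were at 0.544%, 0.421%, 0.751% and 0.628% in hot3-2, against 0.0446%, 0.0255%, 0.0584% and 0.0269% in WT, a ratio of 15.1. Both sets of libraries were separate, and hot3-2 libraries varied less at +21 than at +22. From +1 to +24, +22 held the highest mean level of tailed ends in both genotypes. Tailed ends there were at 2.65%, 1.67%, 5.00% and 4.04% in hot3-2, against 0.144%, 0.0721%, 0.292% and 0.142% in WT. The groups did not overlap, although both varied up to several-fold within a genotype, and replicates 3 and 4 of hot3-2 were the highest. Past A2, at +23 and +24, untailed ends fell off to 0.0336% ± 0.0018 in hot3-2 and 0.00854% ± 0.00318 in WT.

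The shape of the untailed profile from +1 to +24, taken apart from its height, also differed. As shares of the untailed reads of this window, hot3-2 and WT libraries differed on average by 32.8 percentage points, computed as the summed absolute difference over all positions divided by 2 (range 25.6 to 38.0 over 16 pairs). Libraries within hot3-2 differed by 5.48 points (2.52 to 9.002) and within WT by 11.1 points (3.88 to 16.9). The excess of between-group over within-group distance, 24.5 points, was larger than in any other division of the 8 libraries into groups of 4 (exact permutation p = 0.029, the smallest possible). It stayed at this p when tailed reads were added (24.7 points) and when +1 and +2 were left out (20.5 points).

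**Figure D3:**
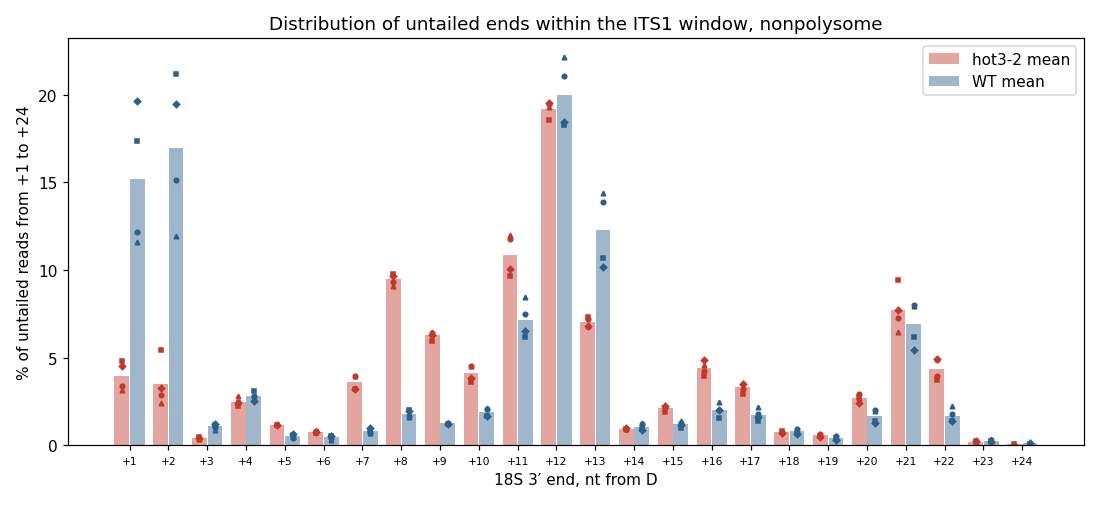
Share of the untailed reads from +1 to +24 found at each position (%), as group means (bars) and single libraries (points), in hot3-2 and WT nonpolysomes. WT reads gather at +1, +2, +12 and +13, and hot3-2 reads have larger shares from +7 to +11 and similar shares at +12.

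By position, edgeR with the window total as library size called 13 of the 24 shares higher in hot3-2 (54.2%) and 5 lower (20.8%). Shares were lower at +1, +2, +3, +13 and +24. Ends at +1 and +2, next to the mature end, made up 3.97% ± 0.83 and 3.49% ± 1.32 of the window in hot3-2, against 15.2% ± 3.9 and 16.9% ± 4.2 in WT. The share at +13 was 7.04% ± 0.26 in hot3-2 and 12.3% ± 2.2 in WT (log2 fold change -0.80, adjusted p = 1.2e-04). Shares were higher from +5 to +11, from +15 to +17, at +19, +20 and +22. The share at +8 was 9.34%, 9.76%, 9.09% and 9.64% in hot3-2, against 1.64%, 2.01%, 1.62% and 1.96% in WT (log2 fold change 2.39, adjusted p = 2.6e-09). At +12 it was 19.2% ± 0.4 in hot3-2 and 20.0% ± 1.9 in WT, with overlapping libraries (adjusted p = 0.62). Shares sum to a whole, so the low values at +1 and +2 raise all others. Within +3 to +24 alone, 10 of 22 shares were higher and 9 lower, and the share at +12 was then lower (log2 fold change -0.51). The mean untailed end lay at +11.9 ± 0.1 in hot3-2 and +9.38 ± 1.11 in WT over the whole window, but at +12.7 ± 0.1 in hot3-2 and +13.1 ± 0.3 in WT from +3 on (exact permutation p = 0.029 and 0.11).

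More of the reads carried a tail in hot3-2 in most regions. From +1 to +24 the tailed share was 36.7%, 32.9%, 44.0% and 43.4% in hot3-2 libraries, against 17.4%, 14.03%, 22.8% and 17.7% in WT. The lowest hot3-2 library lay above the highest WT library (difference of means 21.3 percentage points, exact permutation p = 0.029, 0.032 after adjustment over 9 tests). By region the tailed share was 28.0% ± 1.2 in hot3-2 and 14.5% ± 0.3 in WT at A1, 50.2% ± 4.5 in hot3-2 and 38.3% ± 3.0 in WT between A1 and A2, and 65.8% ± 9.6 in hot3-2 and 44.1% ± 9.4 in WT at A2. It was 68.2% ± 10.6 in hot3-2 and 35.3% ± 9.2 in WT beyond A2. Shares rose in 7 of the 9 tests and fell in 1, the shortened ends from -5 to -1, with 5.44% ± 1.30 in hot3-2 and 7.94% ± 0.48 in WT. A pooled share also depends on how reads divide among positions of a region, so it can rise without a rise at each position. The tailed share at +1 to +2 did not pass (exact permutation p = 0.14). Because only p-values of 0.029 or more are possible, 6 or more of 9 tests must reach that value for any to pass the adjustment. With tails of 2 nt or more only, 4 of 9 reached it and 0 passed, with differences of 17.1 points from +1 to +24, 10.4 at A1, 11.1 between A1 and A2, and 32.9 beyond A2.

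The tailed share was not raised at every position. The positions given here were picked after their values were seen, with no test. At +8 it was 12.9% ± 0.5 in hot3-2 and 12.03% ± 1.34 in WT, and at +7 it was 33.99% ± 3.11 in hot3-2 and 41.7% ± 5.8 in WT, with overlapping libraries at both. At +11 it was 44.4%, 46.3%, 46.4% and 49.8% in hot3-2, against 28.5%, 29.1%, 28.6% and 28.5% in WT. At +12 it was 26.7%, 26.2%, 27.3% and 27.3% in hot3-2, against 14.6%, 13.7%, 15.1% and 13.9% in WT. These positions separated the genotypes with little spread. At +22 the tailed share was 84.1% ± 3.4 in hot3-2 and 79.4% ± 5.1 in WT, and libraries overlapped. At +21, where tails were few, it was 6.02% ± 2.65 in hot3-2 and 1.57% ± 0.28 in WT, without overlap. The A2 share given above pools these 2 positions. Untailed +21 and tailed +22 averaged 1.01% and 3.34% of untailed D in hot3-2, against 0.158% and 0.163% in WT. By the means, +22 thus held a larger part of the A2 reads in hot3-2 than in WT, which by itself raises the pooled share. At +5 the tailed share was lower in all hot3-2 libraries, with 9.17% ± 0.77 in hot3-2 and 16.0% ± 2.9 in WT. The means in hot3-2 and WT were 8.05% and 10.4% at +3, 1.67% and 2.38% at +4, and 25.0% and 26.3% at +6. The hot3-2 mean was thus lower at each position from +3 to +7. Pooled over that region, the tailed share was nevertheless higher, at 21.4% ± 1.7 in hot3-2 and 15.3% ± 1.7 in WT.

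Most tailed reads ended at the same few positions in both genotypes, while their shares at several positions differed. Ends at +22, +17, +11 and +12 together held 79.9% ± 1.7 of all tailed reads from +1 to +24 in hot3-2 and 78.0% ± 2.1 in WT. Of them +22 held 36.6% ± 6.0 in hot3-2 and 30.7% ± 6.2 in WT, and +17 held 17.4% ± 0.3 in hot3-2 and 18.5% ± 0.5 in WT. The share at +12 was 11.1% ± 2.1 in hot3-2 and 15.5% ± 2.2 in WT, that at +9 was 3.14% ± 0.51 in hot3-2 and 1.47% ± 0.29 in WT, and that at +1 was 0.283% ± 0.079 in hot3-2 and 2.35% ± 0.29 in WT. No test was run on these shares.

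Mean tail length overlapped between the genotypes in most regions, and from +3 to +7 it did not. The mean tail from +1 to +24 was 3.33, 3.24, 3.75 and 3.73 nt in hot3-2, against 3.41, 3.21, 3.97 and 3.82 nt in WT (exact permutation p = 0.63). At A1 it was 2.64 ± 0.09 nt in hot3-2 and 2.52 ± 0.12 nt in WT, and at A2 4.45 ± 0.19 nt in hot3-2 and 4.84 ± 0.32 nt in WT. In all of these, libraries of the 2 groups overlapped. From +3 to +7, tails averaged 2.54, 2.58, 2.64 and 2.72 nt in hot3-2, against 4.33, 3.96, 4.65 and 4.12 nt in WT, a difference of -1.64 nt without overlap (exact permutation p = 0.029, but 0.26 after adjustment over the 9 regions). With tails of 10 nt left out, this difference was -0.98 nt. At +9 the share of tails of 5 nt or more was 12.6% ± 0.9 in hot3-2 and 31.98% ± 4.69 in WT, likewise without overlap. None of the 9 length tests passed the adjustment, and 1 reached an unadjusted p under 0.05.

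At the positions with most tails, the level fell off abruptly at a set length, and it did so at the same length in both genotypes. At +12 the mean level was 0.492% with 2 nt and 0.0190% with 3 nt in hot3-2, a 25.9-fold step (24.8 to 27.8 across libraries), against 0.0356% and 0.00111% in WT, a 32.2-fold step (25.3 to 38.1). At +11 the step came between 4 and 5 nt, and was 6.36-fold in hot3-2 and 5.99-fold in WT. At +17 it also came between 4 and 5 nt, and was 13.6-fold in hot3-2 and 7.53-fold in WT. At +10 it came between 6 and 7 nt, 8.82-fold in hot3-2 and 7.005-fold in WT. The WT mean with 7 nt there was 0.00015%, within the range that 3 reads correspond to, and 1 WT library was at 0. At +22 no such step was seen, and the largest drop between consecutive lengths up to 9 nt was 1.33-fold in hot3-2 and 1.29-fold in WT.

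**Figure D4:**
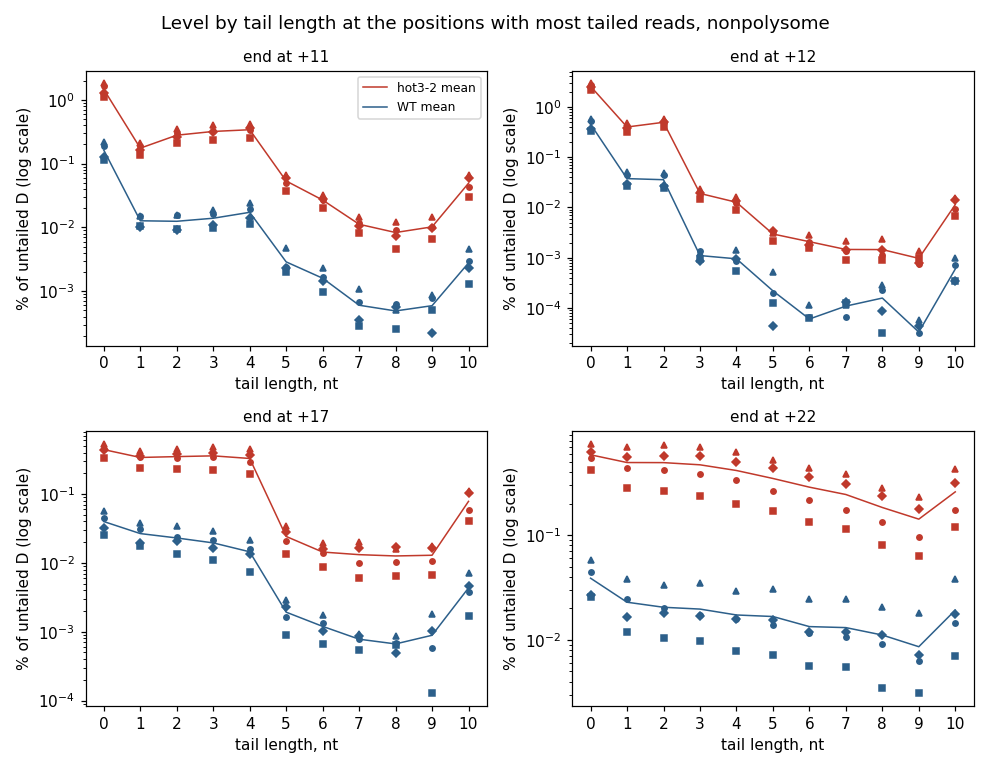
Level by tail length (nt) at +11, +12, +17 and +22, as percent of untailed D on log scales, for the 4 hot3-2 and 4 WT nonpolysome libraries (points, zeros not drawn) with group means (lines). Both genotypes drop after 4 nt at +11 and +17 and after 2 nt at +12, and decline gradually at +22.

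These lengths can be read against the ITS1 sequence given above. A tail made only of A would match the genome at more of its bases than not once it reached 7 nt at +10, 5 nt at +11, 3 nt at +12 and 5 nt at +17, owing to the A run at +14 to +17 and the A2 pair at +21 to +22. From +10 on, 5 positions have such a length of more than 1 nt. The largest step fell at that length at these 4 in both genotypes, and not at the fifth, +19, where the length would be 3 nt and the largest step came between 4 and 5 nt. No such length exists at +22 within the printed bases. None exists at +23 either, where both genotypes dropped most after 6 nt, 7.88-fold in hot3-2 and 17.3-fold in WT. The WT level after that drop, 2.5e-05%, lay below that of 3 reads. At -2, also without such a length, the hot3-2 level fell from 0.154% with 2 nt to 0.00048% with 3 nt. In WT it fell from 0.151% to 0.00030%. Abrupt drops were therefore not confined to positions with such a length. The files used here hold neither the bases of the tails nor the alignments, and how many reads were assigned to a longer template with a shorter tail, or the reverse, was not tested. A class of 10 nt exceeded that of 9 nt at many positions (at D 0.0218% against 0.000232% in hot3-2, and 0.0141% against 7.4e-05% in WT), and whether it also gathers longer tails is not given in the sources used here.

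The sum of end position and tail length does not depend on where a molecule is divided into template and tail. By this total length, and with tails of 10 nt left out, the hot3-2 mean exceeded the WT mean at each length from 1 to 24 nt beyond D, and libraries of the groups overlapped only at 2 nt. Molecules of 8 nt beyond D were at 1.40%, 1.20%, 1.50% and 1.33% of untailed D in hot3-2, against 0.0468%, 0.0407%, 0.0466% and 0.0422% in WT. This ratio of 30.8, and that of 30.9 at 9 nt, were the highest of the profile, and the groups were far apart. The ratio was 6.07 at 12 nt and 5.02 at 13 nt. It was 12.7 at 14 nt, 7.92 at 21 nt, 15.0 at 22 nt and 21.4 at 24 nt. By the group means, the most frequent length was 12 nt in both genotypes, with 14.8% of these molecules in hot3-2 and 17.7% in WT. Single libraries peaked at 12 nt throughout hot3-2 and in WT replicates 1 and 3. WT replicate 2 peaked at 2 nt and WT replicate 4 at 1 nt. This measure was chosen after the classes had been seen, and no test was run on it.

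The hot3-2 effect in nonpolysomes was set against that in total extract and in polysomes of the same genotypes by an interaction term in edgeR. By the study's methods, total extract is the lysate before fractionation, so it includes nonpolysome material. Without a block, the test treated all libraries of a fit as independent. Within total extract 185 of 213 classes tested were higher in hot3-2 (86.9%), and within polysomes 140 of 176 (79.5%). Against total extract 0 of 262 classes differed at an adjusted p under 0.05 (0% of those tested), with 14 at an unadjusted p under 0.05, 13 of them with a larger log2 fold change in nonpolysomes. With the replicate number as a block, 6 classes differed, all with the larger change in nonpolysomes: untailed -5, -4, -3, -1 and +5, and -2 with 1 nt. The block takes equal numbers as paired across fractions too. That pairing was checked only among nonpolysome libraries, and no label states it. These classes, too, were singled out after the fact. Untailed -1 was at 4.14% in hot3-2 and 1.80% in WT in nonpolysomes, and at 0.753% in hot3-2 and 0.783% in WT in total extract (difference of log2 fold changes 1.19, adjusted p = 0.0041 with the block). Without hot3-2 nonpolysome replicate 2 the unblocked test called 4 classes, and without replicate 4 it called 2.

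Against polysomes, 3 of 255 classes differed (1.18%), with 44 at an unadjusted p under 0.05. Untailed +5 was at 0.157% ± 0.023 in hot3-2 and 0.0113% ± 0.0011 in WT in nonpolysomes, and at 0.0260% ± 0.0037 in hot3-2 and 0.00721% ± 0.00147 in WT in polysomes (difference of log2 fold changes 1.95, SE 0.31, adjusted p = 7.2e-04). Untailed +6 differed in the same direction by 1.40 (adjusted p = 0.028), and +7 with 4 nt in the opposite direction by -1.86 (adjusted p = 0.029). With the replicate block 8 classes differed, these 3 among them. The count was 1 without hot3-2 nonpolysome replicate 1 or WT nonpolysome replicate 3, and 7 without hot3-2 nonpolysome replicate 2.

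Levels also differed between fractions, by how much depending on the region. Tailed A2 ends were at 3.40% ± 1.50 in hot3-2 and 0.165% ± 0.093 in WT in nonpolysomes, at 1.44% ± 0.60 in hot3-2 and 0.0726% ± 0.0238 in WT in total extract, and at 0.298% ± 0.115 in hot3-2 and 0.0215% ± 0.0058 in WT in polysomes. The log2 ratios of hot3-2 over WT were 4.36, 4.31 and 3.79 in these 3 fractions. Tailed ends from +3 to +7 had log2 ratios of 3.72, 3.91 and 4.49, with hot3-2 levels of 0.303%, 0.187% and 0.173%. From +3 to +7 the tailed share ran otherwise, with 21.4% ± 1.7 in hot3-2 and 15.3% ± 1.7 in WT in nonpolysomes, 29.5% ± 2.5 in hot3-2 and 12.9% ± 0.2 in WT in total extract, and 37.3% ± 2.4 in hot3-2 and 9.82% ± 0.43 in WT in polysomes. Whether these differences in tailed share differ between fractions was not tested. In nonpolysomes the hot3-2 mean share was lower at each position of this region, and single positions were not compared in the other fractions.

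**Figure D5:**
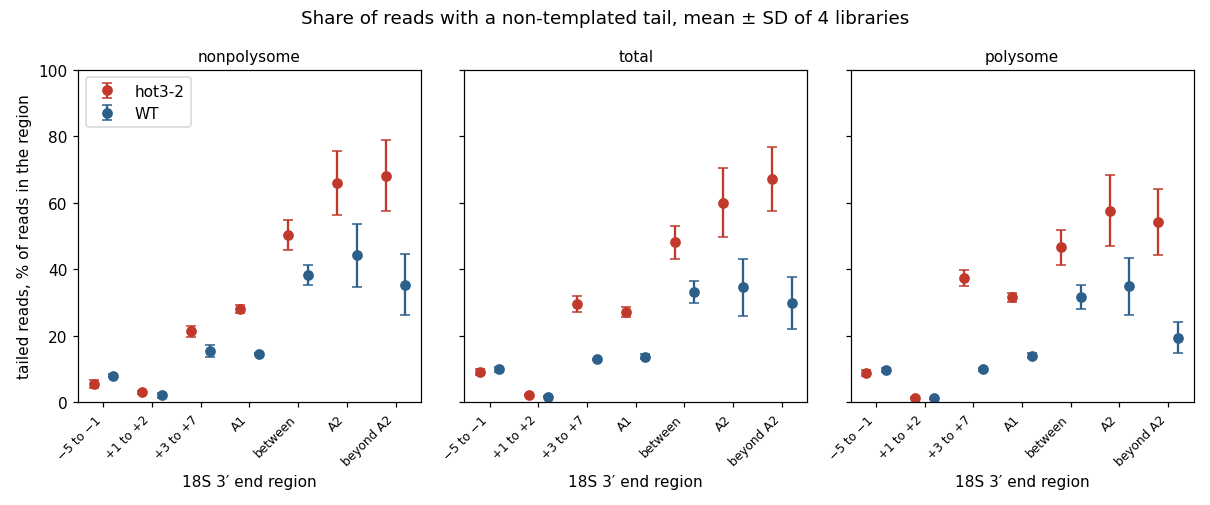
Tailed reads as percent of the reads ending in each region, mean ± SD of 4 libraries, for hot3-2 and WT in nonpolysomes, total extract and polysomes. The hot3-2 means lie above the WT means in every region from +1 on in all 3 fractions, and the gap from +3 to +7 is narrowest in nonpolysomes.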

How the data were processed

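The authors deposited read counts per 18S 3′ end position and tail length, as whole numbers that had not been normalised. Per the submitters' processing notes, cutadapt 4.2 and STAR 2.7.10b were used, and the study's methods name another STAR version. Reads were placed on the authors' own rDNA reference, in which D is position 1891. Here the ITS1 sequence was found by matching the 18S genes to TAIR10.1.

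Counts were tested with edgeR 4.0.16 (glmQLFit, R 4.3.3), with the untailed D count as library size and at least 10 reads in 4 libraries. Interaction terms used 16 libraries per fit. DESeq2 1.42.0 served as an alternative, and the count tests were tested on simulated data. Region levels, shapes, tailed shares and tail lengths were compared by exact two-sided permutation over libraries (Python 3.11.15), with Benjamini-Hochberg adjustment within each family. The classes named are all untailed positions, and the 10 called classes with the largest fold change in each direction that do not overlap and reach 0.01% of untailed D. For the interactions, the 5 called classes at each end are named under the same minimum. Members and lists were chosen with earlier results of these data known.

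Deviations from the group means correlated between same-numbered hot3-2 and WT libraries over 130 classes, with 0.33, 0.57, 0.45 and 0.18 for numbers 1 to 4, so the numbers were taken to pair the libraries. This pairing comes from the data and not from the labels, and hot3-2 replicate 4 correlated more with WT replicate 3 (0.39). The permutation tests ignore the pairing, since 4 pairs allow no p below 0.125.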

Additional observations from a re-analysis of the deposited data

Results flagged for a closer look

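Differences of the hot3-2 effect between fractions were flagged by the test of the difference itself, an interaction term in edgeR, for 3 classes. The log2 fold change of hot3-2 over WT was larger in nonpolysomes than in polysomes by 1.95 for untailed ends at +5 (adjusted p = 7.2e-04) and by 1.40 for untailed ends at +6 (adjusted p = 0.028). It was smaller in nonpolysomes, by -1.86, for ends at +7 with a 4 nt tail (adjusted p = 0.029). All 3 kinds of end lie between D and A1, and all were higher in hot3-2 than in WT in both fractions. With all counted reads as library size, 2 of the 3 were called. No library stood apart from the other 3 of its group among 66 sets of values checked, by a criterion that chance meets in about 1 of 20. That criterion cannot flag a split of 2 libraries against 2, such as replicates 1 and 3 against 2 and 4, or 1 and 2 against 3 and 4.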

How the results depend on the processing

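The count and direction of class calls depended on the scaling, and the count also on the filter. TMM called 139 classes (64 higher, 75 lower) and DESeq2's own size factors 136 (60 higher, 76 lower), and 20 untailed positions turned to a negative log2 fold change under both. The values with TMM, and those with DESeq2 where they differ after rounding, were -5 (-0.71 and -0.72), -4 (-1.49), -3 (-2.21), -1 (-2.50), +1 (-2.97), +3 (-2.43 and -2.42), +4 (-1.24 and -1.25), +6 (-0.31), +11 (-0.40 and -0.41), +12 (-1.07), +13 (-1.80), +14 (-1.18 and -1.19), +15 (-0.15 and -0.16), +17 (-0.072 and -0.085), +18 (-1.06), +19 (-0.52), +20 (-0.32), +21 (-0.82), +23 (-1.36) and +24 (-2.13 and -2.14). With all counted reads as library size, 220 classes were higher and 3 lower, and with 10 reads required in the WT libraries 108 were higher. The replicate block gave 234 higher and 1 lower, with 225 of the 226 calls shared, and blocking replicates 1 and 3 against 2 and 4 gave 231 higher. Leaving out 1 library gave 160 to 229 calls, and fewer classes could pass the read minimum without a hot3-2 library. Without WT replicate 2 or 4, 2 classes were called lower. The shape difference was 22.7 to 27.3 points without 1 library, and the calls of position shares numbered 17 to 19. The share at +24 turned to a log2 fold change of 0.39 with tailed reads included. Region levels passed in 13 of 15 tests with all counted reads as denominator and in 13 with tails of 2 nt or more. With tails of 2 nt or more, 0 of 9 tailed shares passed the adjustment, since 4 of them reached the smallest p and 6 are needed, while the +1 to +24 difference was 17.1 points against 21.3. The difference of hot3-2 effects was called for 6 classes against total extract and 8 against polysomes with the replicate block. Leaving out 1 library gave 0 to 4 and 1 to 7. The replicate block moved the counts of class calls and position shares by under 1.5 times. No blocked count exists for the permutation tests, because 4 pairs allow no p below 0.125, and none of their calls could pass with pairing. Classes under the minimum of 10 reads in 4 libraries were left out of the main fit. Without that filter all 329 classes were tested, with 260 higher and 0 lower.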
